A study of Homo sapiens with 10 samples.

Results

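The splicing factor and hnRNP genes described here were all genes whose symbol in the probe annotation begins with HNRNP, SRSF, SF3A, SF3B, SNRP or LSM followed by a letter or number. There were 68 such genes of 18664 named genes on the arrays, read by 104 probes. They comprised 22 hnRNP genes, 12 SR protein genes, 9 SF3A and SF3B genes, 12 Sm and snRNP genes and 13 LSm genes. The pseudogenes HNRNPA1P10, HNRNPA1P33 and HNRNPA3P1 were left out, and LSMEM1 and LSMEM2, membrane protein genes that share only the letters, were not counted. A gene with several probes, as 28 of the 68 had, is given by the probe with the highest mean, and values are log2 intensities after quantile normalisation.

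Expression was profiled in C4-2, an established human prostate cancer cell line, to determine what β-arrestin 1 (ARRB1) changes in the transcriptome. The 10 arrays comprised 3 of parental C4-2 cells, 3 of cells carrying the GFP empty vector (GFP), 2 of cells stably overexpressing an ARRB1-GFP fusion protein (wtARRB1) and 2 of cells stably overexpressing a nuclear ARRB1-GFP fusion protein (nucARRB1). All were untreated and grown in RPMI with serum, and the stable lines alone were maintained in G418, so that GFP and not parental cells shares the selection with the ARRB1 lines. Both fusions were made from a synthetic ARRB1 coding sequence, nucARRB1 with added nuclear localisation signals, and whether each line is a clone or a pool is not given in the sources used here.

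Within a group the arrays correlated at 0.982 to 0.992, and their number limits the precision. The ARRB1 probe read 8.28, 8.48 and 8.44 (parental), 8.13, 8.59 and 8.62 (GFP), 7.72 and 7.65 (wtARRB1), and 8.30 and 7.71 (nucARRB1). It was lower in wtARRB1 than in GFP (log2 change -0.77, adjusted p = 0.00702, limma) and stood at -0.44 in nucARRB1 (adjusted p = 0.138, not called). It did not show the overexpression, and whether it can read the synthetic sequence was not tested, so it does not check the labels. Of 8 measured luminal prostate markers 6 lay above a log2 of 8, with KRT18 at 12.22 and KLK3 at 6.60, close to the array median of 6.31, and no basal, neuroendocrine, fibroblast, endothelial or blood marker lay above 8.

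Splicing removes introns from pre-mRNA in the spliceosome, which is built from small nuclear ribonucleoproteins (snRNPs) on each intron. The Sm proteins form the ring around U1, U2, U4 and U5 RNA, and the LSm proteins LSM2 to LSM8 form the corresponding ring around U6 RNA. SF3A and SF3B are the parts of the U2 snRNP that hold the branch site. SR proteins mostly favour the use of nearby splice sites, whereas hnRNP proteins coat the transcript and often repress it, and the balance between them sets which exons are kept.

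The largest falls among the members in nucARRB1 against GFP (below) were in HNRNPA2B1, HNRNPM, HNRNPD and SNRPA1. HNRNPA2B1 and HNRNPM are abundant hnRNP proteins that regulate exon choice, HNRNPD (AUF1) binds AU-rich elements and affects mRNA decay, and SNRPA1 is the A′ protein of the U2 snRNP. Their start regions are shown because these genes carried the largest falls in that comparison. Each is the 250 bases before the start in RefSeq (GRCh38.p14), in the direction of the gene. Capitals mark every exact match, on either strand, to the E-box core CACGTG, the CCAAT box or the ETS-type sequence CCGGAAG. Shorter or variant forms of these sites were not searched for and are not marked. The windows lie at chr7:26200747-26200996 (minus strand) for HNRNPA2B1, chr19:8444725-8444974 (plus) for HNRNPM, chr4:82373992-82374241 (minus) for HNRNPD and chr15:101295249-101295498 (minus) for SNRPA1.
HNRNPA2B1: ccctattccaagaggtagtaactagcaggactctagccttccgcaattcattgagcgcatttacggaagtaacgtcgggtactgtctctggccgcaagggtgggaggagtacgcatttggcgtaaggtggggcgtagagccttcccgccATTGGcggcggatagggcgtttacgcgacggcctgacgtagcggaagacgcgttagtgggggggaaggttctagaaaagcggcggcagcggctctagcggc
HNRNPM: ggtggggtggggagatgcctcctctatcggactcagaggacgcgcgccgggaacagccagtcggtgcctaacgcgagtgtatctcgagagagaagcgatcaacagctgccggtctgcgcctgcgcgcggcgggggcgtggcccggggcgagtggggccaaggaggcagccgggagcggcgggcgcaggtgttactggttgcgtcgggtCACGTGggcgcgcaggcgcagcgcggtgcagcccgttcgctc
HNRNPD: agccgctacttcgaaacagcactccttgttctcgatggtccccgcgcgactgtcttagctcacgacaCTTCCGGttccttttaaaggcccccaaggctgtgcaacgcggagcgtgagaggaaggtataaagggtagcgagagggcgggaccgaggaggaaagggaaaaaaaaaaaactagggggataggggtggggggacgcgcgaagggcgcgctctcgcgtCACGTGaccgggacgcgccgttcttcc
SNRPA1: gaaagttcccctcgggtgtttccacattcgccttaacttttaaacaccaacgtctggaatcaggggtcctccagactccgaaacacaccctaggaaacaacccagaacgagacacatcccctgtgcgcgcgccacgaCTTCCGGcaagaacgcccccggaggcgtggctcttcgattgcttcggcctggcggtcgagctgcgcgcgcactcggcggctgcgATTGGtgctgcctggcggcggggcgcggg

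HNRNPM and HNRNPD each held the palindrome CACGTG, beginning 42 and 27 bases before the start. HNRNPA2B1 and SNRPA1 instead held CCAAT, on the reverse strand, beginning 101 and 29 bases before it. HNRNPD and SNRPA1 also held CCGGAAG, on the reverse strand, 183 and 113 bases before it. Of the 68 members, 61 had at least 1 window in the table, and LSM6, LSM14A, LSM1, SF3B3, SRSF2, SNRPD1 and HNRNPA1 had none.

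CCGGAAG was found in 20 of the 61 members (32.8%) and in 10.2% of the 27305 genes in the table, each counted if any of its windows held the motif. CCAAT was found in 30 members (49.2%) and in 37% of all genes. CACGTG was found in 7 members (11.5%) and in 7.73% of all genes. Among the 17 members with a window that were lower in nucARRB1 (below), 6 held CCGGAAG, 9 held CCAAT and 3 (HNRNPA3, HNRNPD and HNRNPM) held CACGTG. Among the other 44 members these counts were 14, 21 and 4. Over single windows, CCGGAAG was present in 8.52%, CCAAT in 32% and CACGTG in 6.34% of 35116. The genes in the table outnumber those named on the arrays and include non-coding genes such as HNRNPD-DT, so members and all genes are unlike sets. A gene with several windows, as 17 of the 61 members had, also has more places to hold a motif. All these motif matches describe the letters only.

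NucARRB1 cells were compared with GFP cells to ask how nuclear ARRB1 affected these genes. Of the 68 members, 19 were lower (27.9%) and 3 were higher at a false discovery rate of 1% by limma, against 5.9% of all named genes lower and 4.97% higher (10.9% called either way). With median scaling in place of quantile normalisation the counts were 21 lower and 0 higher. The median change of the members was -0.26 on the log2 scale, against -0.00497 over all named genes. In such bulk arrays a smaller share of cells that express a gene and less of its RNA per cell cannot be told apart. Those lower were 9 hnRNP genes, 3 SR protein genes, 3 SF3A and SF3B genes, 2 snRNP genes and 2 LSm genes. Levels were at least 2-fold lower in 6 of them, HNRNPA2B1, HNRNPM, HNRNPD, SNRPA1, LSM4 and HNRNPAB.

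WtARRB1 cells were compared with the same 3 GFP arrays to ask how the fusion without added nuclear signals affected them. Here 18 of the 68 members were lower (26.5%) and none was higher, against 4.71% of all named genes lower, 4.3% higher and 9.01% either way (limma, 1%). At a false discovery rate of 5% LSM1 and SRSF8 were higher, and 35 members (51.5%) had an unadjusted p under 0.05 in either direction, as did 26.5% of all named genes. The median change was -0.25, against -0.00315 over all named genes. The members lower were 7 hnRNP, 3 SR protein, 3 SF3A and SF3B, 1 snRNP and 4 LSm genes, and 5 of them were at least 2-fold lower (HNRNPM, HNRNPA2B1, HNRNPAB, HNRNPD and SRSF1). Since both comparisons rest on the same GFP arrays, their values are given side by side and no overlap is counted.

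**Figure D1:**
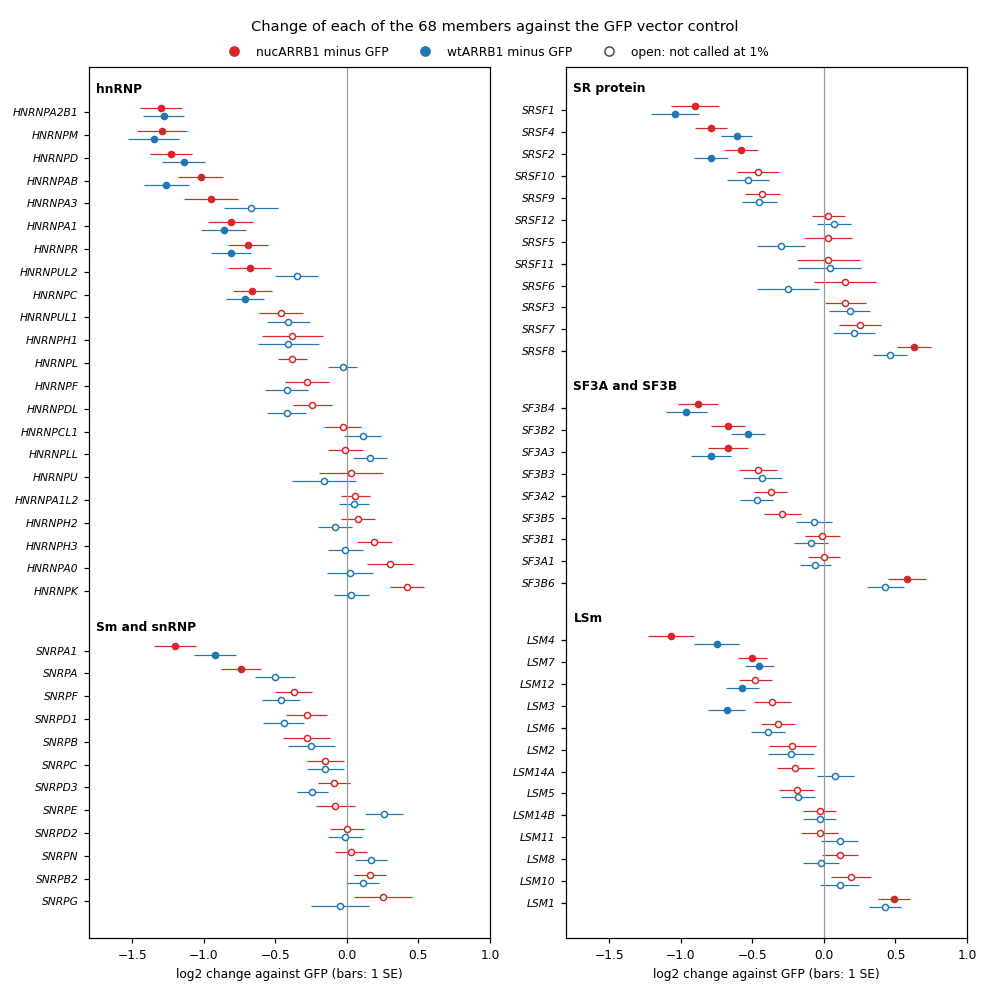
Log2 change against GFP of each of the 68 members by family, for nucARRB1 (red) and wtARRB1 (blue), with bars of 1 SE; filled points were called at a false discovery rate of 1%. In both ARRB1 lines the filled points lie to the left of 0, down to -1.30 and -1.35, except LSM1, SF3B6 and SRSF8 in nucARRB1.

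Among the hnRNP genes, HNRNPA2B1 read 12.60, 13.06 and 12.88 on the parental arrays, 12.93, 12.87 and 12.97 with GFP, 11.58 and 11.72 with wtARRB1, and 11.40 and 11.84 with nucARRB1. All 4 ARRB1 arrays lay below all 6 control arrays. The level was 2.47-fold lower in nucARRB1 (log2 change -1.30, SE 0.145, adjusted p = 1.99e-05, limma) and 2.42-fold lower in wtARRB1 (-1.28, adjusted p = 3.74e-05). A dimmer probe of the same gene, with a mean of 9.19, gave changes of 0.40 and -0.14, neither called, and why the probes differ was not tested.

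HNRNPM read 12.37, 12.68 and 12.86 on the parental arrays, 12.82, 12.95 and 12.78 with GFP, 11.78 and 11.22 with wtARRB1 and 11.33 and 11.79 with nucARRB1. Again no ARRB1 array reached a control array, and the change was -1.29 in nucARRB1 (SE 0.176, adjusted p = 0.000122, limma) and -1.35 in wtARRB1 (adjusted p = 0.00012). Its other probe was near the array median, at 6.51, and gave -0.29 and -0.43, not called.

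HNRNPD read 12.66, 12.80 and 13.04 on the parental arrays, 12.92, 12.98 and 12.91 with GFP, 11.91 and 11.68 with wtARRB1 and 11.46 and 11.96 with nucARRB1. It was 2.34-fold lower in nucARRB1 (log2 change -1.23, adjusted p = 4.09e-05, limma) and 2.21-fold lower in wtARRB1 (-1.14, adjusted p = 0.000118). Both HNRNPD probes were lower in both lines. HNRNPAB, the CArG-binding relative of HNRNPD, read 12.94, 13.21 and 13.02 on the parental arrays, 13.18, 13.14 and 13.53 with GFP, 12.14 and 11.91 with wtARRB1 and 12 and 12.52 with nucARRB1, with all ARRB1 arrays below the controls. All 3 of its probes were lower in both lines, with changes of -1.02, -0.94 and -0.93 in nucARRB1 and of -1.26, -1.20 and -1.12 in wtARRB1.

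HNRNPA1, an abundant hnRNP protein that often represses exons, read 8.13, 8.04 and 8.31 with GFP, 7.14 and 7.45 with wtARRB1 and 7.27 and 7.43 with nucARRB1, without overlap. It changed by -0.81 in nucARRB1 (adjusted p = 0.00238, limma) and by -0.86 in wtARRB1 (adjusted p = 0.00187), and parental cells were at 8.04, 8.6 and 8.55. Its other probe, with a mean of 7.41, gave -0.57 in nucARRB1 (adjusted p = 0.0282, limma) and -0.48 in wtARRB1 (adjusted p = 0.0804), neither called. HNRNPA1 has many processed copies in the genome, and whether its probes separate them was not tested. HNRNPA3, a close relative of HNRNPA1, read 8.03, 8.11 and 8.02 with GFP, 7.14 and 7.63 with wtARRB1 and 7.0 and 7.2 with nucARRB1, a change of -0.95 in nucARRB1 (adjusted p = 0.00287) and a difference of -0.67 in wtARRB1 (adjusted p = 0.0375) that does not pass 1%.

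HNRNPC, which binds uridine tracts, changed by -0.66 and -0.71, and HNRNPR, a relative of SYNCRIP, by -0.69 and -0.81, called lower in both lines. HNRNPUL2 was called in nucARRB1 alone (-0.68, adjusted p = 0.00658, against -0.35, adjusted p = 0.226, limma), and its difference between the lines was -0.32 (adjusted p = 0.735). The HNRNPC level differed by 0.42 between GFP and parental cells (adjusted p = 0.272), and against parental cells the differences in the ARRB1 lines were -0.23 and -0.29, not called. A dimmer HNRNPC probe gave 0.17 and 0.10.

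The other 13 hnRNP genes were not called in nucARRB1, with differences from -0.46 in HNRNPUL1 to 0.42 in HNRNPK. HNRNPK, a KH-domain protein that binds cytidine-rich sequence, read 10.80, 11.01 and 10.94 with GFP, 11.01 and 10.90 with wtARRB1 and 11.34 and 11.34 with nucARRB1. Both nucARRB1 arrays lay above all others, with an adjusted p of 0.0407 (limma) that passes 5% and not 1%, and the difference in wtARRB1 was 0.03. A dimmer HNRNPK probe stood at -0.29 in nucARRB1 and -0.48 in wtARRB1 (adjusted p = 0.158 and 0.0118, not called), and the mean of both probes at 0.06 and -0.23, so the direction depends on the probe. HNRNPU, which binds chromatin and RNA as scaffold attachment factor A, gave 0.03 and -0.16 at its brighter probe and -0.90 (adjusted p = 0.000279) and -0.96 (adjusted p = 0.000217) at a dimmer one, so its direction depends on the probe. Across the 22 genes the median was -0.38 in nucARRB1 and -0.41 in wtARRB1.

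**Figure D2:**
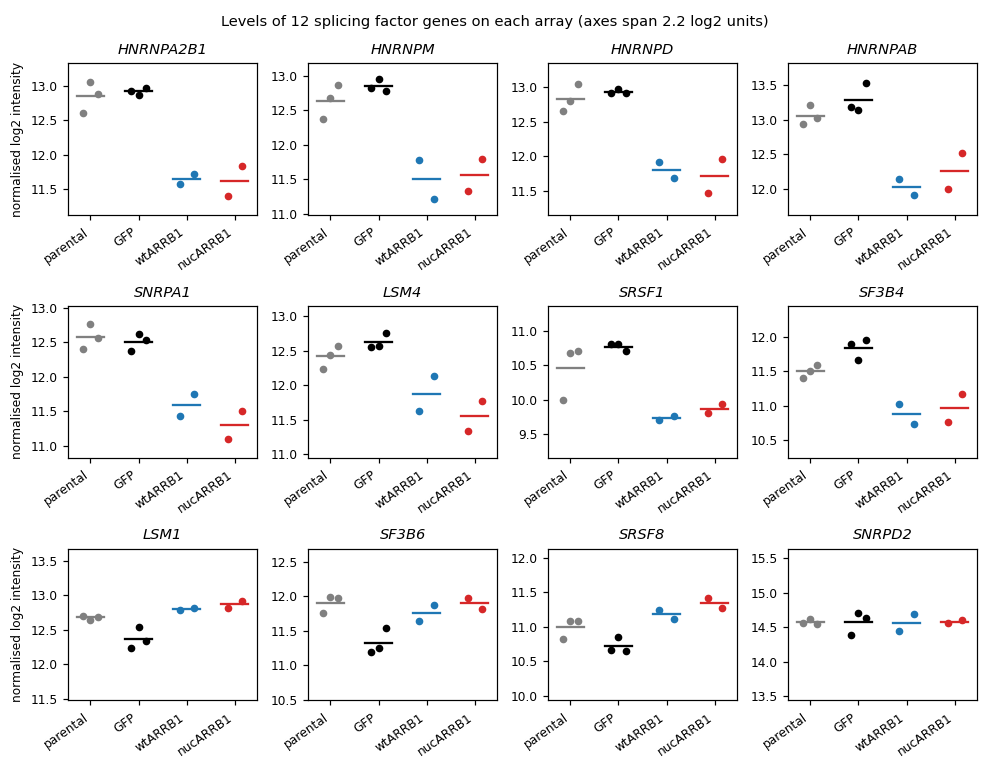
Normalised log2 intensity on each of the 10 arrays for 8 members that fell, the 3 called higher in nucARRB1 and SNRPD2, with points for arrays and lines for group means; all panels span the same range. For HNRNPA2B1 the 6 control arrays lie from 12.60 to 13.06 and the 4 ARRB1 arrays from 11.40 to 11.84, whereas SNRPD2 lies from 14.38 to 14.70 throughout.

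Among the SR proteins 3 of 12 genes were lower in each ARRB1 line, and they were SRSF1, SRSF2 and SRSF4. SRSF1, the archetypal SR protein, read 9.99, 10.67 and 10.70 on the parental arrays, 10.80, 10.81 and 10.70 with GFP, 9.71 and 9.76 with wtARRB1 and 9.80 and 9.94 with nucARRB1. Parental replicate 1 lay close to the ARRB1 arrays while the other control arrays did not. SRSF1 changed by -0.90 in nucARRB1 (SE 0.166, adjusted p = 0.00155, limma) and by -1.04 in wtARRB1 (adjusted p = 0.000605), and its differences from parental cells were -0.58 (adjusted p = 0.0456) and -0.72 (adjusted p = 0.0156), which do not pass 1%.

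SRSF4 read 11.11, 11.28 and 11.16 with GFP, 10.59 and 10.55 with wtARRB1 and 10.33 and 10.45 with nucARRB1, a change of -0.79 (adjusted p = 0.000153, limma) and -0.61 (adjusted p = 0.00182). SRSF2 (SC35), used as a marker of nuclear speckles, read 12.35, 12.59 and 12.68 with GFP, 11.76 and 11.74 with wtARRB1 and 11.83 and 12.08 with nucARRB1, a change of -0.58 (adjusted p = 0.0037) and -0.79 (adjusted p = 0.000408). Both genes were also lower against parental cells in both lines. Against these, SRSF8 was higher in nucARRB1, at 11.42 and 11.28 against 10.66, 10.85 and 10.65 in GFP (log2 change 0.63, adjusted p = 0.00197), and stood at 0.46 in wtARRB1 (adjusted p = 0.0221).

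SRSF8 arose as a retrotransposed copy of SRSF2, and whether their probes are specific was not tested. The level of SRSF8 in parental cells was 10.83, 11.09 and 11.09, with a mean between those of GFP and nucARRB1 and the lowest array within the GFP range, and against parental cells its difference of 0.35 was not called (adjusted p = 0.115, limma). SRSF9, read by the brightest SR probe, had log2 differences of -0.43 and -0.45 (adjusted p = 0.0309 and 0.027, not called). SRSF10 was not called at its brightest probe (-0.46 and -0.53), while 2 of its 4 other probes were lower in nucARRB1 (-0.53 and -0.67). The remaining SR genes ran from 0.03 in SRSF12, SRSF5 and SRSF11 to 0.25 in SRSF7 in nucARRB1. The family median was 0.03 in nucARRB1, which became -0.07 with median scaling and -0.05 without normalisation, and -0.27 in wtARRB1.

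Of the 9 SF3A and SF3B genes, SF3A3, SF3B2 and SF3B4 were lower in both lines. SF3B4, which contacts the pre-mRNA beside the branch site, read 11.90, 11.66 and 11.96 with GFP, 11.02 and 10.74 with wtARRB1 and 10.76 and 11.17 with nucARRB1. It changed by -0.88 in nucARRB1 (adjusted p = 0.000473, limma) and -0.96 in wtARRB1 (adjusted p = 0.000284), and parental cells, at 11.41, 11.51 and 11.59, lay between GFP and the ARRB1 lines. SF3A3 changed by -0.67 and -0.79, and SF3B2 by -0.67 and -0.53. SF3B1, the subunit recurrently mutated in cancer, differed by -0.01 and -0.09, and SF3A1, at a mean near the array median, by 0.00 and -0.06, none of them called.

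SF3B6, a small subunit of SF3B, went the other way at the probe that stands for it. It read 11.19, 11.25 and 11.54 in GFP and 11.98 and 11.82 in nucARRB1 cells (log2 change 0.58, adjusted p = 0.00856, limma), and 11.64 and 11.87 in wtARRB1 cells (0.43, adjusted p = 0.0585). Parental cells were at 11.75, 11.99 and 11.98, so that all 3 GFP arrays lay below the other 7. The difference of nucARRB1 from parental cells was -0.00 (adjusted p = 0.996), and that of GFP against parental cells was -0.58, the member with the smallest adjusted p in that comparison (0.0756). A dimmer SF3B6 probe, with a mean of 9.03, gave 0.32 in nucARRB1 and -0.01 in wtARRB1 against GFP, neither called. The median over the 9 genes was -0.37 in nucARRB1 and -0.43 in wtARRB1.

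Of the 12 Sm and snRNP genes, none of the 8 for core Sm proteins was called in either line at the probe that stands for each gene (limma, 1%), and their medians were -0.09 and -0.15. An unadjusted p under 0.05 was seen for 1 of them in nucARRB1, against 27.7% of all named genes, and for 3 in wtARRB1, against 26.5%. SNRPD2, a core Sm protein read by the brightest probe of the members, gave 14.38, 14.70 and 14.63 with GFP, 14.44 and 14.69 with wtARRB1 and 14.56 and 14.60 with nucARRB1, with differences of 0.00 and -0.01 from GFP (SE 0.119). SNRPG, another core Sm protein, differed by 0.25 in nucARRB1 and -0.05 in wtARRB1 (SE 0.203), so that a change of that size could not be told from the spread between arrays. SNRPF gave -0.37 and -0.46 at its brighter probe, not called, and -0.55 (adjusted p = 0.00997) and -0.64 (adjusted p = 0.00438) at its other probe. SNRPN, a paralog of SNRPB, differed by 0.03 and 0.17 at its brightest probe, and another of its 4 probes was higher in wtARRB1 (0.58, adjusted p = 0.0092) and stood at 0.33 in nucARRB1 (adjusted p = 0.172).

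At the probe that stands for each gene, those called lower in this family were SNRPA1 in both lines and SNRPA in nucARRB1. SNRPA1 read 12.41, 12.76 and 12.56 on the parental arrays, 12.37, 12.62 and 12.53 with GFP, 11.43 and 11.75 with wtARRB1 and 11.10 and 11.51 with nucARRB1, with the ARRB1 arrays all below the controls. It was 2.3-fold lower in nucARRB1 (log2 change -1.20, SE 0.146, adjusted p = 4.47e-05, limma) and 1.89-fold lower in wtARRB1 (-0.92, adjusted p = 0.000633). SNRPA, the A protein of the U1 snRNP, changed by -0.74 in nucARRB1 (adjusted p = 0.00187) and stood at -0.50 in wtARRB1 (adjusted p = 0.035, not called). SNRPB2, the partner of SNRPA1 in the U2 snRNP, read 11.50, 11.72 and 11.60 in GFP and 11.69 and 11.84 in nucARRB1 cells, a difference of 0.16 (adjusted p = 0.595), and SNRPC of U1 differed by -0.15. A dimmer SNRPB2 probe, with a mean of 9.99, gave 0.63 in nucARRB1 (adjusted p = 0.0198, limma) and 0.55 in wtARRB1 (adjusted p = 0.0502). Neither passes 1%, so the size of the SNRPB2 difference depends on the probe.

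Among the LSm genes, LSM4 and LSM7 were lower in both lines. LSM4 read 12.24, 12.44 and 12.57 on the parental arrays, 12.55, 12.57 and 12.76 with GFP, 11.62 and 12.13 with wtARRB1 and 11.34 and 11.77 with nucARRB1. It changed by -1.07 in nucARRB1 (SE 0.16, adjusted p = 0.000275, limma) and by -0.75 in wtARRB1 (adjusted p = 0.00594), and the difference between the lines was -0.31 (adjusted p = 0.774). LSM7 changed by -0.50 and -0.45. LSM3 was called in wtARRB1 (-0.68, adjusted p = 0.00287) and not in nucARRB1 (-0.36, adjusted p = 0.116), and LSM12, which lies outside the rings, likewise (-0.57, adjusted p = 0.00376, against -0.48, adjusted p = 0.0108). Neither gene was called at its other probe. That of LSM3 gave -0.56 in wtARRB1 and 0.07 in nucARRB1, and that of LSM12 gave 0.04 and -0.16. Of the 7 genes of the ring on U6, LSM2 to LSM8, 2 were lower in nucARRB1 and 3 in wtARRB1.

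LSM1 replaces LSM8 in the cytoplasmic ring that promotes decapping of mRNA. It read 12.24, 12.54 and 12.33 with GFP, 12.79 and 12.81 with wtARRB1 and 12.82 and 12.91 with nucARRB1, a rise of 0.49 in nucARRB1 (adjusted p = 0.00817, limma) and a difference of 0.43 in wtARRB1 (adjusted p = 0.0238). In parental cells it was 12.70, 12.64 and 12.69, and nucARRB1 differed from these by 0.19 (adjusted p = 0.516). LSM8 differed by 0.11 and -0.02. For LSM1, SF3B6 and SRSF8, the 3 genes called higher in nucARRB1, GFP differed from parental cells by -0.30, -0.58 and -0.28, and none of the 3 was called in nucARRB1 against parental cells.

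GFP and parental cells were compared as the 2 controls. No member was called (limma, 1%), while 0.0482% of all named genes were called, and 10 members (14.7%) had an unadjusted p under 0.05, as did 10.0% of all named genes. Against parental cells 14 members were lower in nucARRB1, where 3.56% of all named genes were lower, and 11 were lower in wtARRB1, where 2.41% were, and none was higher, where 3.09% and 2.47% of all named genes were. The comparison of nucARRB1 with parental cells and that of wtARRB1 with GFP have no array in common. Their lists of lower members shared 11 genes, 78.6% of the 14 and 61.1% of the 18, namely HNRNPA1, HNRNPA2B1, HNRNPAB, HNRNPD, HNRNPM, LSM3, LSM4, SF3B2, SNRPA1, SRSF2 and SRSF4. The lists of nucARRB1 against GFP and wtARRB1 against parental cells shared 9, 47.4% of the 19 and 81.8% of the 11. Such overlaps were not counted over all named genes. Every comparison also rests on the same estimate of the spread of each probe, so these lists are not independent.

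NucARRB1 was compared with wtARRB1 to ask whether the nuclear fusion differed from the wild type. No member was called (limma), against 0.0643% of all named genes, and 4 (5.88%) had an unadjusted p under 0.05, as did 10.1% of all named genes. The smallest adjusted p was 0.413, in HNRNPL, which binds CA repeats. HNRNPL read 10.73 and 10.78 in wtARRB1 and 10.36 and 10.44 in nucARRB1 cells, against 10.72, 10.77 and 10.84 in GFP, so that both nucARRB1 arrays lay below the rest. The difference was -0.35 (SE 0.114). For the members called in 1 line alone, the difference between the lines ran from -0.32 in HNRNPUL2 to 0.32 in LSM3 (adjusted p from 0.674 to 0.967). With 2 arrays in each line, this does not show that the lines were alike.

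**Figure D3:**
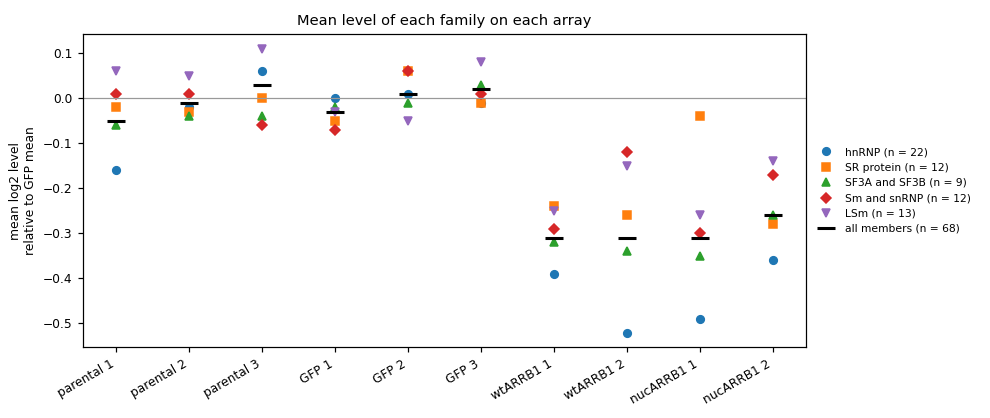
Mean log2 level of each family on each of the 10 arrays, relative to the mean of the GFP arrays, with a bar for the mean of all 68 members. The mean over all members lies from -0.05 to 0.03 on the control arrays and from -0.31 to -0.26 on the ARRB1 arrays, and the hnRNP genes lie lowest there.

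The mean over all 68 members, relative to GFP, was -0.05, -0.01 and 0.03 in parental cells, -0.31 and -0.31 in wtARRB1 and -0.31 and -0.26 in nucARRB1 cells. The hnRNP mean was -0.39 and -0.52 in wtARRB1 and -0.49 and -0.36 in nucARRB1. Parental replicate 1 had an hnRNP mean of -0.16, the lowest of the controls. The SR protein mean of nucARRB1 replicate 1 was -0.04 against -0.28 in replicate 2, and in that array SRSF6 and SRSF5 were high, at 12.35 and 12.27 against 11.53 and 11.70.

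Markers of proliferating cells were also lower on the ARRB1 arrays. The mean of 15 such markers, relative to GFP, was -0.40, -0.37 and -0.40 in parental cells, -1.79 and -1.11 in wtARRB1 and -2.56 and -1.66 in nucARRB1 cells, and 15 of the 15 were lower in nucARRB1 and 11 in wtARRB1. AURKB, a mitotic kinase, changed by -2.91 in nucARRB1. On the same arrays the mean over the 68 members, relative to GFP, was -0.05, -0.01 and 0.03 in parental cells. It was -0.31 and -0.31 in wtARRB1 and -0.31 and -0.26 in nucARRB1 cells. The part of proliferation in the falls of the splicing factors was not tested.

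The level of a gene on the arrays also bore on whether it was called. Of the 8 members with a mean log2 of up to 7, none was called lower in nucARRB1, and 0.535% of all named genes in that range were. From 7 to 9 it was 20% of 15 members against 10.9% of all named genes. From 9 to 11 it was 36.8% of 19 members against 18.9% of all named genes, and above 11 it was 34.6% of 26 members against 16.5%. In wtARRB1 the shares of these 3 ranges were 13.3% against 8.82%, 31.6% against 15.1%, and 38.5% against 12.7%.

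**Figure D4:**
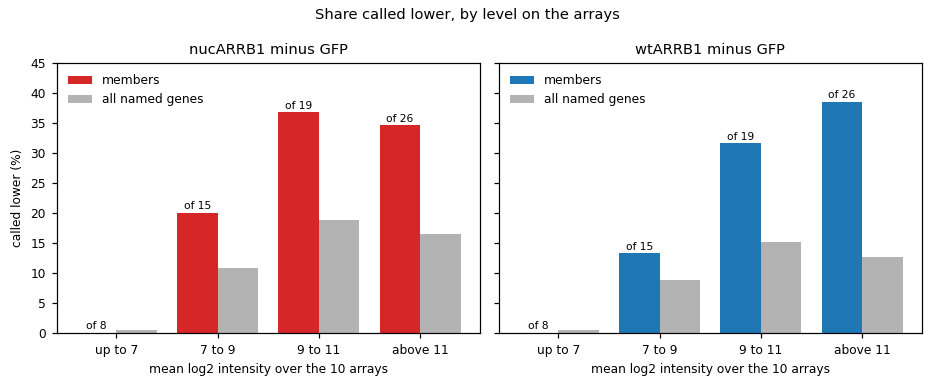
Share called lower against GFP (vertical axis, percent, limma at 1%) among members (coloured) and among all named genes (grey), by mean log2 intensity, with the number of members above each bar. In nucARRB1 the members reach 36.8% from 9 to 11 and 34.6% above 11, and the share of all named genes stays at or under 18.9%.

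Head-to-head neighbours, on the opposite strand with starts at most 1000 bases apart, were listed for 21 members, and 14 of these had a neighbour measured here. CBX3, a heterochromatin protein whose start lies 697 bases from that of HNRNPA2B1, differed by -0.21 in nucARRB1 (adjusted p = 0.391, limma) and -0.24 in wtARRB1 (adjusted p = 0.319), where HNRNPA2B1 changed by -1.30 and -1.28. ACTMAP, next to SNRPA, differed by -0.05 and -0.04, and TTC9C, next to HNRNPUL2, by 0.43 and 0.41, none called. The reverse was seen at SNRPD3, not called at -0.09 and -0.24, whose neighbour GUCD1 was lower in both lines (-0.54, adjusted p = 0.00516, and -0.74, adjusted p = 0.000497). GLA, the lysosomal α-galactosidase next to HNRNPH2, was also lower (-0.79 and -0.68), while HNRNPH2 differed by 0.08 and -0.08. Other pairs had the same direction, without a call at 1%. ENOPH1 differed by -0.44 and -0.45 beside HNRNPDL at -0.24 and -0.42. PLEKHJ1 differed by -0.47 and -0.34 beside SF3A2 at -0.37 and -0.47. The pairs named here were chosen after their values were seen, and whether neighbours move together was not tested.

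Other genes of splicing, and of mRNA export, decapping and histone mRNA 3′ end formation, were read from 10 lists of 179 measured genes. In nucARRB1 35 of these were lower and 6 higher, against 5.9% and 4.97% of all named genes. In wtARRB1 38 were lower and 4 higher, against 4.71% and 4.3%, with medians of -0.21 and -0.20. In the tri-snRNP 6 of 17 genes were lower in each line, and the largest fall was in EFTUD2, the GTPase of the U5 snRNP (-0.94, adjusted p = 2.82e-05, in nucARRB1, limma). Among 18 partners of U1 and U2 that recognise splice sites 5 were lower in each, and SNRNP70, which binds U1 RNA, changed by -0.90 and -1.10. Of 16 genes for snRNP assembly 3 were lower in nucARRB1, and in wtARRB1 4 were lower and 1 higher. GEMIN4, a part of the SMN complex that loads Sm rings, read 10.62, 10.74 and 10.68 with GFP, 9.25 and 9.29 with wtARRB1 and 9.41 and 9.36 with nucARRB1.

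ALYREF, an adaptor for mRNA export, had the largest fall in nucARRB1 of all on these lists (log2 change -1.63, adjusted p = 4.61e-06, limma). It read 11.98, 12.01 and 12.05 with GFP, 10.62 and 10.67 with wtARRB1 and 10.05 and 10.71 with nucARRB1. On its list of exon junction and export factors 5 of 20 were lower in nucARRB1 and 8 in wtARRB1. SRPK1, which phosphorylates SR proteins, changed by -0.97 and -0.83, and was 1 of 3 lower genes among 20 SR protein kinases and related factors in nucARRB1, and of 2 in wtARRB1. SYNCRIP, also called hnRNP Q, changed by -1.0 and -0.92. It was 1 of 8 lower genes among 33 other RNA-binding regulators in each line, where 2 were higher in nucARRB1 and 1 in wtARRB1. KHDRBS3, a STAR-family regulator, was higher in both lines (0.82 and 0.92).

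In the PRP19 complex and among catalytic step factors 1 of 25 genes was lower in each line, and 2 were higher in nucARRB1 and 1 in wtARRB1. These shares (4% lower in each, 8% and 4% higher) lay near those of all named genes. The latter were 5.9% lower and 4.97% higher in nucARRB1, and 4.71% and 4.3% in wtARRB1. Whether the counts of the short lists below differ from the shares of all named genes was not tested. XAB2, which also acts in transcription-coupled repair, read 11.80, 11.53 and 11.53 in GFP and 13.45 and 12.26 in nucARRB1 cells, a change of 1.23 (adjusted p = 0.00203, limma) with a wide gap between the 2 arrays. CTNNBL1 changed by -0.88 in nucARRB1. Of 11 minor spliceosome genes 1 was lower and 2 were higher in nucARRB1, with SNRNP48 at -0.58 and ZCRB1 at 0.86, and in wtARRB1 ZCRB1 alone was called (0.85). Among 9 decapping partners of the cytoplasmic LSm ring 1 was lower in each line, and PATL1, which binds that ring, changed by -0.81 in nucARRB1 (adjusted p = 0.00317) and stood at -0.54 in wtARRB1 (adjusted p = 0.0542). Of 10 partners of LSM10 and LSM11 in histone mRNA processing 2 were lower in nucARRB1 and 3 in wtARRB1, and CSTF2, a cleavage stimulation factor, changed by -1.09 and -0.96.

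Leaving out single arrays set the limits of these counts. Of the 22 members called in nucARRB1, 7 were called without any 1 of the 10 arrays, and they were LSM4, SRSF4, SNRPA1, HNRNPA2B1, HNRNPAB, HNRNPD and HNRNPM. Without nucARRB1 replicate 1 the lower members numbered 8, and without GFP replicate 2 or GFP replicate 3 they numbered 12. SF3B4, SRSF1 and SF3B2 lost their call in nucARRB1 without nucARRB1 replicate 1 alone (adjusted p = 0.0128, 0.0171 and 0.0296, limma), and HNRNPA1 without that array or GFP replicate 3 (up to 0.0291). Of the 18 called in wtARRB1, 7 were called without any 1 array, and they were SF3B4, SRSF1, SRSF2, HNRNPA2B1, HNRNPAB, HNRNPD and HNRNPM. Without wtARRB1 replicate 1 the lower members numbered 9, without GFP replicate 2 they numbered 12, and without GFP replicate 3 they numbered 11. SNRPA1 and SF3A3 lost their call in wtARRB1 without wtARRB1 replicate 1 alone (adjusted p = 0.0174 and 0.035), HNRNPR without wtARRB1 replicate 2 alone (0.0291), and LSM4 without any of 5 arrays, namely parental replicate 2, each GFP array and wtARRB1 replicate 1 (up to 0.142). Each of the 3 rises in nucARRB1 lost its call without at least 3 of the arrays taken singly, and with each of them median scaling ended the call (adjusted p from 0.0403 to 0.179).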

How the data were processed

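RNA of 10 C4-2 samples was read on Illumina expression BeadChips as biotinylated cRNA. The sample labels gave the groups, and the design text calls the samples biological replicates. The log2 values per probe that the authors deposited come from the beadarray package, in a quantile-normalised form, used as given (median per array 6.31), and in a form without normalisation, used for alternatives. The background correction is not given in the sources used here. No filter on dim probes was applied, since no detection p was used.

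For 48801 probes on 10 arrays, limma 3.58.1 in R 4.3.3 estimated 4 group means per probe (lmFit, then eBayes, with 6 residual degrees of freedom and a prior of 9.94). P-values were two-sided, with Benjamini-Hochberg adjustment across the probes, and genes were called at a false discovery rate of 1%. Symbols came from the platform annotation by Entrez ID, which gave 1 symbol to 27576 probes and several to 13. Where a gene had several probes, the brightest on average stood for it. The fit was tested on simulated data. Promoter windows came from RefSeq.

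The members, the lists and the rule for named genes were chosen with earlier results of these data known. That rule took the 8 largest called rises and falls in either ARRB1 line against GFP, the extremes and the 2 highest levels of each family, and the largest called rise and fall of each pathway list in nucARRB1. Other members named were chosen after their values were seen. Arrays with the same replicate number in their titles were checked for pairing (13 pairs, correlation of deviations from -0.0834 to 0.0542). No sign of pairing by that number was seen. The authors' own array names follow a different numbering, so a pairing on another basis was not tested. Alternatives were another normalisation, priors, weights, probe choice, control or threshold, a replicate block, and each array left out.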

Additional observations from a re-analysis of the deposited data

How the results depend on the processing

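The 19 members lower in nucARRB1 against GFP numbered 16 to 21 with the authors' log2 values normalised anew by quantiles, median scaling, no normalisation, dim probes left out, an intensity trend with robust priors, array weights or the mean of all probes of a gene, 14 against parental cells and 23 at a false discovery rate of 5%. Without single arrays they numbered 8 to 19. The 18 lower in wtARRB1 numbered 14 to 21 under the same settings, 11 with parental cells as the control, 24 at 5%, and 9 to 19 without single arrays. The 3 higher in nucARRB1 became 0 with median scaling, no normalisation or parental cells as the control, 1 with an intensity trend and robust priors or array weights, and 0 to 3 without single arrays. The 0 higher in wtARRB1 became 2 at 5%. No member was called between GFP and parental cells or between nucARRB1 and wtARRB1 under any alternative run. SF3B6 in nucARRB1 went from 0.58 to -0.00 with parental cells as the control. The cause of these changes was not tested.

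In their titles the arrays share only a replicate number, which the authors' own array names do not follow. With the number as a replicate block, which leaves 4 residual degrees of freedom, 14 members were lower and 2 higher in nucARRB1, and 15 lower and 0 higher in wtARRB1. No normalisation shifted the median of all genes by -0.12 in wtARRB1 against GFP and by 0.13 in nucARRB1 against wtARRB1. Signal over background was not measured, and 8 members lay at a mean log2 of 7 or less, where a change can be understated.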
